A study of Homo sapiens with 20 samples.

Results

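The genes described are 10 markers of ovarian carcinoma, chosen by symbol: the transcription factor genes PAX8, WT1, SOX17, EMX2, MECOM and ESR1 and the surface or secreted antigen genes MSLN, FOLR1, WFDC2 and MUC16. All 10 were among the 24196 genes of an expression table of 8 tumors. The tumors grew from OVCAR8 cells, an established human line of high-grade serous ovarian carcinoma. Per the study's methods and legends, OVCAR8-sgNC-luc cells, which carry a non-targeting control guide RNA and luciferase, were injected at the ovary, into its fat pad, in NSG mice aged 6 weeks, which lack T, B and natural killer cells. The 4 control mice received PBS and the 4 treated mice received sodium gluconate, a small sugar acid salt, at 1 mg/kg by intraperitoneal injection once a week for 35 days. Both groups therefore share the line, the guide, the luciferase and the host, and every tumor comes from 1 cell line. The labels call the samples orthotopic tumors, while the study's text on the sequencing speaks of treated cells, and the labels were followed.

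PAX8 is a paired box factor of the Mullerian duct, the embryonic tube that forms the fallopian tube and uterus, and its presence in a carcinoma points pathologists to that lineage. SOX17, EMX2, WT1, MECOM and the estrogen receptor ESR1 act in the same epithelium or its tumors. Mesothelin (MSLN), folate receptor alpha (FOLR1), HE4 (WFDC2) and CA125 (MUC16) sit on or are shed from serous carcinoma cells, and are used as blood tests or as targets of antibodies.

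Levels are given in FPKM, fragment counts corrected for gene length and for library size, so that genes of unequal length can be set on 1 scale. The lengths behind the values can differ from the exon lengths of the GENCODE 29 gene annotation. They were 567 against 1382 bases for WFDC2 and 18932 against 13854 bases for ESR1, so the order of genes at near levels depends on the annotation. Dividing each value by the worth of a single fragment gave whole fragments, and from them 95% Poisson intervals that cover counting error only. PBS replicate 4 held 3953206 fragments and the other 7 tumors 39325749 to 46551535, so that 1 fragment counted about 10 times as much there (9.95 to 11.8 times fewer fragments), and 15514 genes were above 0 in it against 19991 to 20251. Its correlation with the other tumors over all genes was 0.938 to 0.951, against 0.980 or more among the others. Group differences of the markers are therefore also given without it.

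The lineage and antigen markers covered a wide range of levels, from 129 FPKM for MSLN to 0.000332 FPKM for MUC16 as means over the 8 tumors. MSLN and PAX8 were abundant in every tumor, FOLR1, WT1 and WFDC2 were low, EMX2 and MECOM were near 0 in all tumors but PBS replicate 4, and ESR1, SOX17 and MUC16 were at or close to 0. The order by mean was MSLN, PAX8, FOLR1, WT1, WFDC2, EMX2, MECOM, ESR1, SOX17 and MUC16. MSLN stood above PAX8, PAX8 above FOLR1 and MECOM above ESR1 in all 8 tumors, which were 3 of the 9 neighbouring pairs. FOLR1 stood above WT1, and WFDC2 above EMX2, in 7 of 8, each time with PBS replicate 4 as the exception, and SOX17 above MUC16 in 7 of 8. EMX2 exceeded MECOM in 6 of 8. WT1 and WFDC2 changed places in 4 of 8 tumors, and ESR1 was above SOX17 in 2 of 8, so these neighbours were not told apart.

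**Figure D1:**
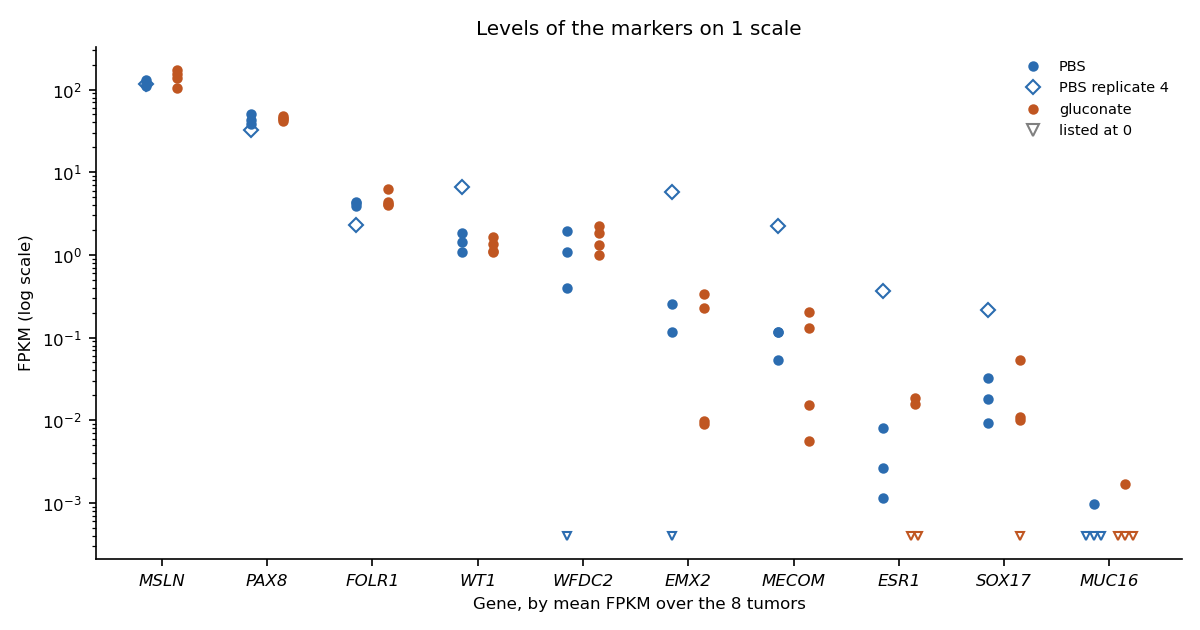
FPKM on a log scale of the 10 markers in each tumor, with PBS tumors in blue, gluconate tumors in orange, PBS replicate 4 as open diamonds and values listed at 0 as open triangles at the bottom. MSLN and PAX8 lie above 30 FPKM in every tumor, and the diamonds of WT1, EMX2, MECOM, ESR1 and SOX17 lie above all other points of their gene.

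The label of the samples was checked against these markers. PAX8 and MSLN were present in all 8 tumors, whereas MUC16 was listed at 0 in 6 of 8 and SOX17 had at most 5 fragments in any tumor. Of the 10 markers, only PAX8 and MSLN were thus abundant, and MUC16 and SOX17 were at or close to 0 at this depth. FOLR1, WT1 and WFDC2 were low, and EMX2, MECOM and ESR1 were near 0 outside PBS replicate 4. Of the 10 markers, 6 passed the filter for testing, a mean of at least 0.5 FPKM, and EMX2 passed it only through PBS replicate 4.

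PAX8 lies on the minus strand at chr2:113215997-113278950 (GRCh38, GENCODE 29). It measured 38.0, 43.1, 50.7 and 32.4 FPKM in PBS tumors 1 to 4 and 45.1, 43.9, 47.3 and 41.5 FPKM in gluconate tumors 1 to 4. The gluconate values sat inside the PBS range, with the highest and the lowest tumor both in the PBS group. The group means were 41.1 ± 7.77 (SD, n = 4) and 44.4 ± 2.42 FPKM (SD, n = 4). The gluconate tumors differed by 0.13 on the log2 scale (SE 0.13), with an adjusted p of 0.752 by limma. Without PBS replicate 4 the log2 fold change was 0.03. These levels put PAX8 above 92.7% to 95.1% of all genes in each tumor.

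PAX8 overlaps the antisense gene PAX8-AS1, which measured 0.75, 0.78, 1.55 and 0.49 FPKM in the PBS tumors and 0.72, 0.70, 1.13 and 0.58 FPKM in the gluconate tumors. The strand setting of the counting is not given in the sources used here, so reads of overlapping partners cannot be told apart. This also holds for WT1, EMX2, MECOM, ESR1 and FOLR1, which overlap other genes in GENCODE 29 as well. ESR1 overlaps the protein-coding gene SYNE1 on the opposite strand, and EMX2 overlaps the antisense gene EMX2OS. PAX2 and PAX5, paralogs of PAX8, had means of 0.0377 and 0.00131 FPKM. The 3 genes whose log2 levels followed PAX8 most closely over the 7 tumors other than PBS replicate 4 were YTHDF3-DT (Pearson r 0.98), AFMID (0.97) and AP4M1 (0.97), among 29 genes over 0.9. With PBS replicate 4 included, r became -0.11, 0.89 and 0.70, and the points share library and depth. MUC16 was not tested and was at 0 in most tumors, so that no such genes were named for it.

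MSLN, the gene of a surface glycoprotein attached by a lipid anchor, lies on the plus strand at chr16:760762-768865. It measured 129, 109, 116 and 116 FPKM in the PBS tumors and 139, 103, 152 and 171 FPKM in the gluconate tumors. Gluconate tumors 1, 3 and 4 were above every PBS tumor and gluconate tumor 2 was below every one. The means were 117 ± 8.51 (SD, n = 4) and 141 ± 28.7 FPKM (SD, n = 4). The log2 fold change was 0.24 (SE 0.14), with an unadjusted p of 0.117 and an adjusted p of 0.740 by limma, and the exact permutation p was 0.200. Without PBS replicate 4 the log2 fold change was again 0.24. Leaving out gluconate replicate 2 gave 0.39 at an unadjusted p of 0.00354 by limma, which is below the 2-fold line, and leaving out gluconate replicate 4 gave 0.14 at an unadjusted p of 0.314.

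FOLR1 binds folate and carries it into the cell by endocytosis, and lies on the plus strand at chr11:72189558-72196323. It measured 3.91, 4.36, 4.24 and 2.32 FPKM in the PBS tumors and 4.17, 4.04, 4.37 and 6.24 FPKM in the gluconate tumors. All but PBS replicate 4 and gluconate replicate 4 lay between 3.91 and 4.37 FPKM. The low value in PBS replicate 4 rested on 10 fragments, with an interval of 1.11 to 4.28 FPKM. That interval overlaps those of all other tumors except gluconate replicate 4. The log2 fold change was 0.35 (SE 0.22, adjusted p = 0.740 by limma) and 0.15 without PBS replicate 4.

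WFDC2 encodes the secreted protease inhibitor HE4 and lies on the plus strand at chr20:45469706-45481532. It measured 1.08, 1.93, 0.398 and 0 FPKM in the PBS tumors and 1.31, 2.23, 0.987 and 1.82 FPKM in the gluconate tumors. The 0 in PBS replicate 4 allows up to 1.34 FPKM, more than PBS tumors 1 and 3 showed, so no difference of that tumor from them was detectable at this depth. The log2 fold change was 1.46 (SE 0.80, unadjusted p = 0.0987, adjusted p = 0.740 by limma), and 0.61 without PBS replicate 4. It moved with the processing, to 0.57 with a pseudocount of 1 in place of 0.1, 2.32 with 0.01, 0.85 with voom and 0.98 with quantile scaling. Without PBS replicate 2 it was 2.06 at an unadjusted p of 0.0223 by limma, the only one of the settings run in which a marker reached an unadjusted p under 0.05 with a 2-fold change. SLPI, a secreted inhibitor with the same WAP fold, was far more abundant, at 63.7 ± 8.97 FPKM in PBS (SD, n = 4) and 78.5 ± 17.2 FPKM in gluconate tumors (SD, n = 4).

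MUC16, the gene of the very large mucin that carries CA125, lies on the minus strand at chr19:8848844-8981342. PBS replicate 2 held 2 fragments of it and gluconate replicate 1 held 3, and it was listed at 0 in the other 6 tumors. A count of 0 allows up to 0.00149 to 0.00173 FPKM in the deeper tumors and 0.0172 FPKM in PBS replicate 4. SOX17, a factor of the Mullerian epithelium on chromosome 8, had 1, 2, 3 and 2 fragments in the PBS tumors and 5, 0, 1 and 1 in the gluconate tumors. Its 0.216 FPKM in PBS replicate 4 rested on 2 fragments, with an interval of 0.0261 to 0.779 FPKM that holds the highest other value, 0.0528 FPKM.

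WT1, a zinc finger factor of serous carcinoma and of the developing gonad, lies on the minus strand at chr11:32387775-32435630. It measured 1.44, 1.82, 1.07 and 6.58 FPKM in the PBS tumors and 1.10, 1.64, 1.09 and 1.35 FPKM in the gluconate tumors. PBS replicate 4 was 3.61 times the next highest tumor, and its interval of 5.31 to 8.06 FPKM lies above all the others, which overlapped between the groups. The log2 fold change was -0.67 (SE 0.47, adjusted p = 0.740 by limma) and -0.14 without PBS replicate 4. The antisense gene WT1-AS measured 0.158 to 0.295 FPKM. Its highest value, in PBS replicate 4, rested on 5 fragments, with an interval of 0.0956 to 0.687 FPKM that holds the values of all other tumors.

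**Figure D2:**
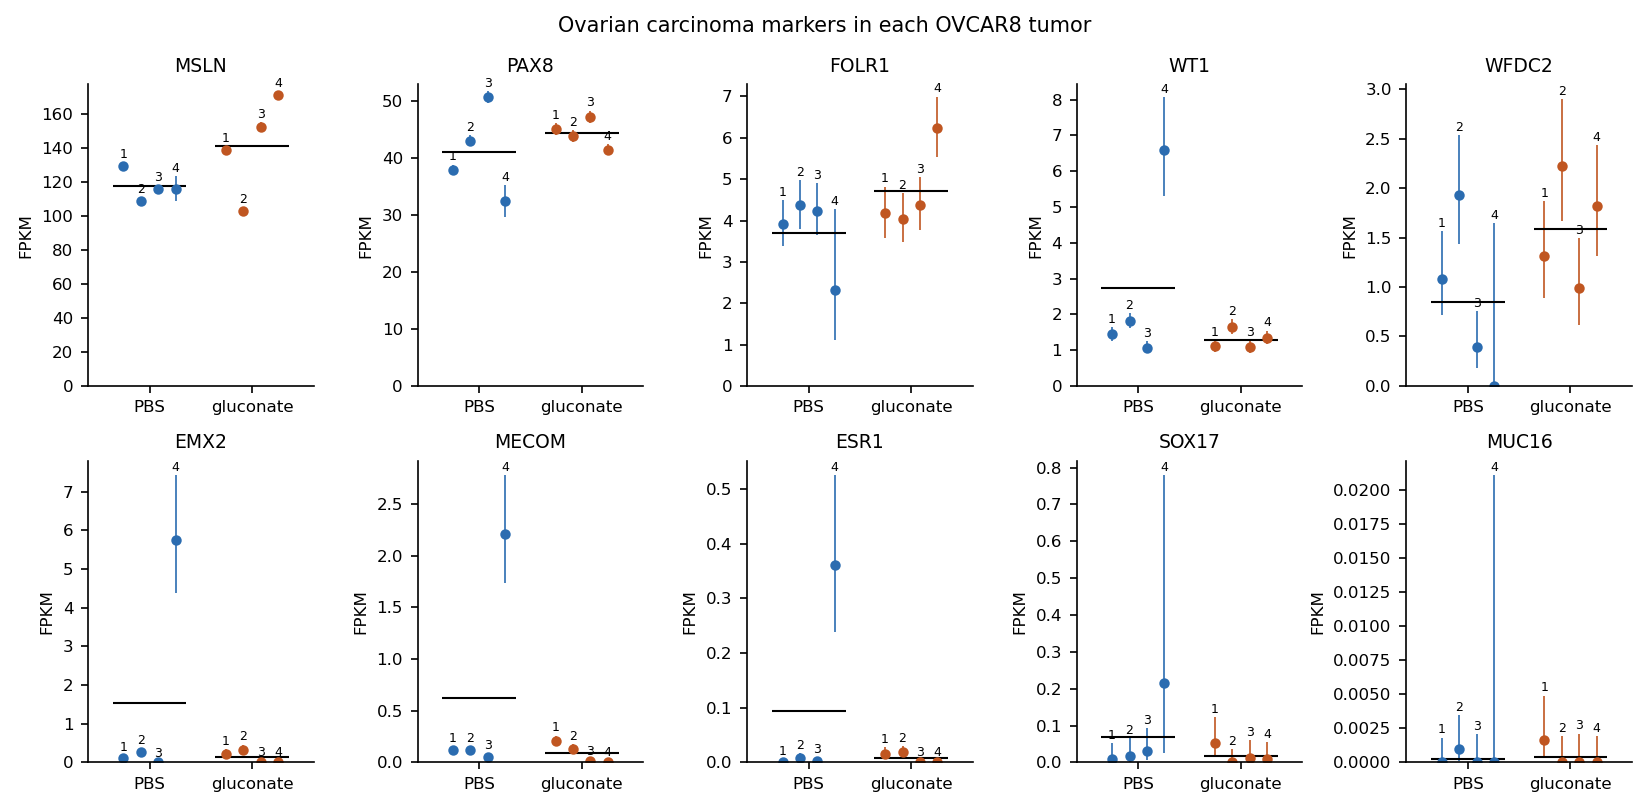
FPKM of each marker in the PBS (blue) and gluconate (orange) tumors on linear axes from 0, with the replicate number above each point, bars for the 95% Poisson interval of counting error and black lines for group means. In WT1, EMX2, MECOM and ESR1 the interval of PBS replicate 4 lies above all other tumors, while in SOX17 it holds the highest of them.

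EMX2, a homeobox factor needed for the urogenital tract, lies on the plus strand at chr10:117542444-117549546. It measured 0.118, 0.257, 0 and 5.75 FPKM in the PBS tumors and 0.229, 0.333, 0.00980 and 0.00901 FPKM in the gluconate tumors. These rest on 14, 31, 0 and 59 fragments and on 24, 37, 1 and 1 fragments. PBS replicate 4 was 17.3 times the next highest tumor although it held the fewest fragments in all, and the other tumors fell between 0 and 37 fragments in both groups.

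MECOM, the zinc finger gene of the 3q26 locus that is often gained in serous carcinoma, lies on the minus strand at chr3:169083499-169663618. It measured 0.115, 0.116, 0.0539 and 2.21 FPKM in the PBS tumors and 0.205, 0.131, 0.0152 and 0.00559 FPKM in the gluconate tumors. PBS replicate 4, with 73 fragments, was 10.8 times the next highest tumor. ESR1, at chr6:151656691-152129619 on the plus strand, had 1, 7, 2 and 27 fragments in the PBS tumors and 12, 15, 0 and 0 in the gluconate tumors. PBS replicate 4 reached 0.361 FPKM, 19.5 times the next highest tumor. In EMX2, MECOM and ESR1 alike, gluconate tumors 1 and 2 were above gluconate tumors 3 and 4.

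The limma log2 fold change of EMX2 was -1.18 (SE 1.13, adjusted p = 0.752), and the mean log2 levels differed by 0.04 in the other direction without PBS replicate 4. MECOM and ESR1 were below the filter, and their mean log2 levels differed by -1.07 and -0.48 (gluconate minus PBS), with exact permutation p values of 0.400 and 0.743. Without PBS replicate 4 these differences were -0.17 and 0.06. Leaving out a PBS library far above the others must raise such a difference. That the difference was nearer to 0 without that library for WT1, EMX2, MECOM and ESR1 alike therefore adds nothing on these genes.

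PBS replicate 4 was the highest tumor for 5 of the 10 markers, against 12.3% of all genes in the table, and for EMX2, MECOM, ESR1 and SOX17 it was over 4 times the next highest, against 1.72% of all genes. It was the lowest for PAX8, FOLR1 and WFDC2, as it was for 58.0% of the genes tested. Among 20 further regulators of Mullerian tissue and ovarian carcinoma in the table, 6 were highest in that tumor: LHX9, HOXA9, HOXC8, NR2F2, MEIS1 and MEIS2. MEIS1 and MEIS2, named here after their values were seen, encode TALE homeodomain partners of HOX proteins. MEIS1 measured 2.69, 3.27, 1.53 and 37.6 FPKM in the PBS tumors and 2.44, 2.99, 1.32 and 1.12 FPKM in the gluconate tumors. MEIS2 measured 21.9 FPKM in PBS replicate 4, 3.37 to 4.79 FPKM in the other PBS tumors and 3.13 to 4.197 FPKM in the gluconate tumors. In both, PBS 2 came next after PBS 4 and gluconate 4 was the lowest. EMX2 and MECOM shared with them PBS 4 at the top and PBS 3, gluconate 3 and gluconate 4 as the lowest tumors.

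**Figure D3:**
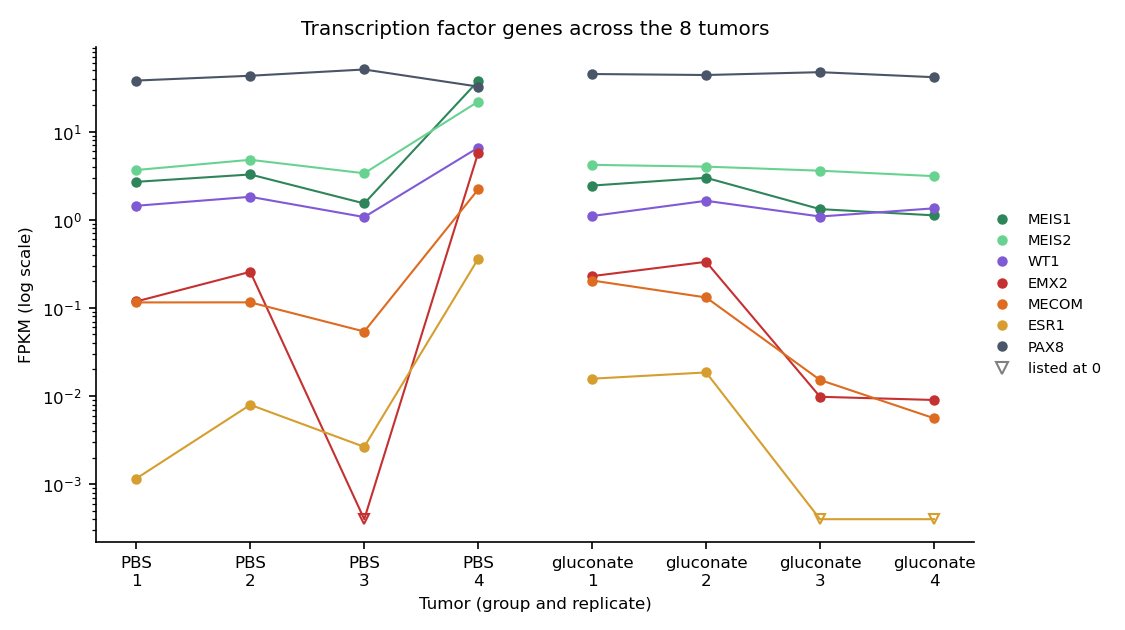
FPKM on a log scale of 7 transcription factor genes in each tumor, with lines joining the tumors of a group only to help the eye and open triangles for values listed at 0. All except PAX8 peak in PBS replicate 4, where MEIS1 reaches 37.6 and MEIS2 21.9 FPKM, while PAX8 has its lowest value there, 32.4 FPKM.

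Markers of other cell types were set beside these values, since in bulk tumors fewer cells of a type and less RNA per cell cannot be told apart. Host cells in these tumors are of the mouse, while the table lists human genes, and how mouse reads were handled is not given in the sources used here, so these sums are levels of human-named genes and do not count host cells. Of 10 granulosa and theca cell markers, 2 were highest in PBS replicate 4, and their summed level was 23.3 FPKM there against 5.71 to 7.08 FPKM in the other PBS tumors and 4.02 to 5.81 FPKM in the gluconate tumors. FOXL2 made up 21.5 FPKM of that sum, and 7 of the 10, among them FSHR, CYP19A1, STAR and NR5A1, were at 0 in that tumor, and none of these 7 exceeded 0.356 FPKM in any other. The fibroblast sum was lower there, at 45.3 FPKM against 130 to 185 FPKM and 165 to 192 FPKM, most of it COL1A1, with COL1A2, DCN and POSTN at means of 0.0295, 0.0209 and 0.0157 FPKM over the 8 tumors. The mesothelial sum was 7.80 FPKM against 10.2 to 16.2 FPKM and 9.14 to 13.1 FPKM, and endothelial markers summed to 4.13 FPKM against 5.97 to 8.07 FPKM and 5.15 to 8.60 FPKM, with CDH5 and CLDN5 at 0 in all 4 PBS tumors and TEK highest in PBS replicate 4, at 0.159 FPKM against 0.0104 to 0.0490 FPKM in the other 7. Myeloid markers summed to 27.1 FPKM against 25.9 to 28.9 FPKM and 20.8 to 28.0 FPKM, nearly all of it CD68. ITGAM was highest in PBS replicate 4, at 1.36 FPKM against 0.691 to 0.810 FPKM in the other 7, and PTPRC was at 0 in that tumor, as in at least 1 of the deeper ones. Adipocyte markers summed to 12.2 FPKM against 6.64 to 9.00 FPKM and 6.00 to 8.46 FPKM, nearly all of it LPL. The part of these genes and of the low depth in the high values of WT1, EMX2, MECOM and ESR1 was not tested.

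Windows upstream of the start sites are shown for MECOM and MEIS1, which were high in PBS replicate 4, and for PAX8, which was lowest there. Each is 200 bases from 250 bases before the RefSeq start site (GRCh38.p14), 5′ to 3′ on the strand of the gene, with matches on either strand of CCAAT or GGGCGG in capitals. They are at chr3:169663763-169663962 on the minus strand, the farthest upstream of 3 MECOM starts, at chr2:66434875-66435074 on the plus strand and at chr2:113278972-113279171 on the minus strand.
MECOM: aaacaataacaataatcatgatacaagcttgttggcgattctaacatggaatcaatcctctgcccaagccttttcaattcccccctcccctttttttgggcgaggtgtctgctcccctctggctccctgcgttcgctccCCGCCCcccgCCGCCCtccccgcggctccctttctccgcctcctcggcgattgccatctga
MEIS1: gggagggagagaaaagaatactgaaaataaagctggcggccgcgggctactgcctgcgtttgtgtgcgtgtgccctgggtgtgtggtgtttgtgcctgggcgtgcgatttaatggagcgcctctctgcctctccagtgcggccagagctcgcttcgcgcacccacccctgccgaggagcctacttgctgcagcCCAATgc
PAX8: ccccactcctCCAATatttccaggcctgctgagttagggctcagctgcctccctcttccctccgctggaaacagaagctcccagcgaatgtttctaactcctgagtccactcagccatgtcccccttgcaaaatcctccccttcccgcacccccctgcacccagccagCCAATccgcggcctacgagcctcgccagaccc
The MECOM window held GGGCGG 2 times, the MEIS1 window CCAAT 1 time and the PAX8 window CCAAT 2 times. Over 35116 such windows of all genes, 9627 held CCAAT (27.4%) and 12277 held GGGCGG. None of the 3 windows held the other motifs searched on both strands: TATAAA (7.63% of all windows), TGACAG, the core bound by MEIS proteins (10.7%), or the consensus palindrome of the estrogen response element (0.0228%). A match or its lack describes only the letters of the window.

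Whether gluconate treatment went with a change in the markers was the question of the comparison between groups. Of the 6 markers tested, 0 passed an unadjusted p under 0.05 with a 2-fold change, against 0.296% of the 12486 genes tested, and 0 passed the unadjusted p alone by limma, against 4.62%. Without PBS replicate 4, 0 of 5 tested markers had an unadjusted p under 0.05 by limma, against 6.21% of the genes then tested. With voom on the recovered fragments 0 also had an unadjusted p under 0.05. The groups overlapped for all 10 markers, while 3.49% of the genes tested had groups that did not overlap. Without PBS replicate 4 they overlapped for all 10 as well, where 6.10% of the genes tested did not. Two-sided exact permutation p values ranged from 0.200 to 1 over the 10 markers, where the design allows 0.0286 at the lowest. The median log2 fold change of the tested markers was 0.19, beside 0.07 for all genes tested, and 0.15 beside -0.00 without PBS replicate 4. The limma p values set the difference between groups against the spread between tumors of a group, which limma shares in part over genes. The exact p values set it against the other splits of the tumors.

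**Figure D4:**
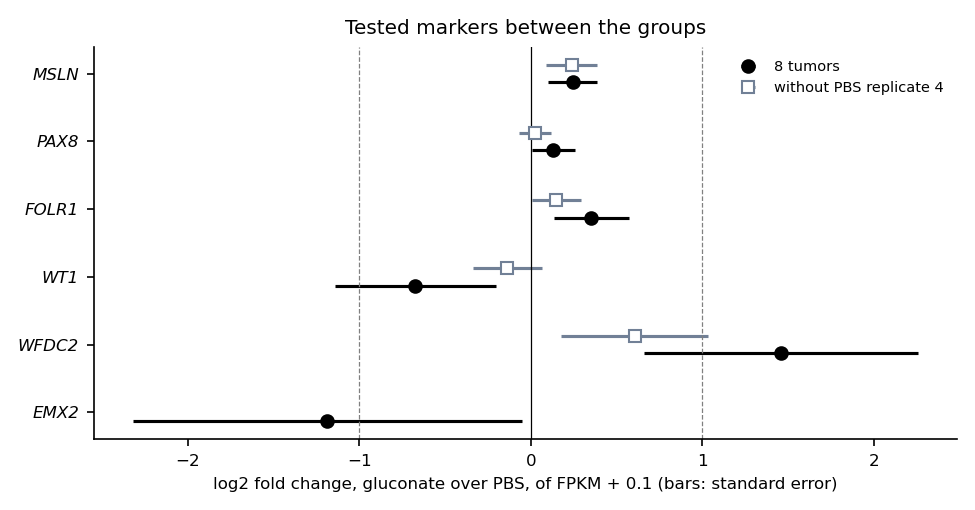
Limma log2 fold change of FPKM + 0.1, gluconate over PBS, of the 6 tested markers, with bars of 1 standard error, for all 8 tumors (black) and without PBS replicate 4 (open grey squares); dashed lines mark a 2-fold change. WT1, FOLR1 and WFDC2 move toward 0 without that tumor, MSLN stays at 0.24, and EMX2 was then below the filter.

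Lists of related genes gave counts of the same kind, with 0 genes in any of them past both lines or at an adjusted p under 0.05 by limma. Of 20 surface antigens 9 were tested, with a median log2 fold change of 0.21, or 0.09 for the 10 tested without PBS replicate 4. The most abundant was CD24 at 112 FPKM, a mucin-like antigen of ovarian carcinoma, and the least was the mucin gene MUC4 at 0.000350 FPKM. At an unadjusted p under 0.05 by limma, MUC1, the mucin that carries CA15-3, was higher in gluconate tumors at 7.47 ± 1.17 against 5.81 ± 0.161 FPKM (SD, n = 4 each; log2 fold change 0.35), and F3, tissue factor, was lower at 46.2 ± 8.48 against 71.4 ± 17.7 FPKM (SD, n = 4 each; -0.61). Their log2 fold changes were 0.34 and -0.52 without PBS replicate 4, with unadjusted p values of 0.0145 and 0.0194 by limma. These names follow from a count of 2 and were chosen after their values were seen, as were the others given for such a p below; of all genes tested, 3.13% were higher and 1.49% lower at such a p.

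Among the regulators, 14 of 21 were tested, with a median log2 fold change of -0.05 (-0.06 without PBS replicate 4) and a range from -1.35 in MEIS1 to 0.51 in HOXA11. ZNF217 was higher and NR2F2 lower at an unadjusted p under 0.05 by limma, with log2 fold changes of 0.30 and -0.64. Without PBS replicate 4, where NR2F2 had its highest value of 49.4 FPKM, these were 0.25 (unadjusted p = 0.0675 by limma) and -0.34 (unadjusted p = 0.0399 by limma), so that only NR2F2 kept such a p. CDKN2A, which encodes the p16 cell cycle inhibitor, was the most abundant at 83.0 FPKM, and GATA4 the least at 0.00328 FPKM. The paralogs and antisense partners held 12 of 17 genes in the table and 5 tested, of which 0 had an unadjusted p under 0.05 by limma, with a median of 0.04 (-0.01 without PBS replicate 4). SLPI was the most abundant and PAX5 the least. Mean levels were 0.0314 FPKM for ESR2 and 0.00752 FPKM for EMX1, paralogs of ESR1 and EMX2, and 0.0451 FPKM for FOLR3, a paralog of FOLR1. PRDM16 of the MECOM family stood at 0.545 FPKM and SOX7 and SOX18 at 0.589 and 0.692 FPKM. WFDC3, another gene of the WAP family, had a mean of 0.376 FPKM.

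The remaining lists hold genes that act downstream of or beside ESR1, FOLR1 and WT1. Of 11 tested steroid receptor and estrogen response genes, 0 had an unadjusted p under 0.05 by limma, and their median log2 fold change was 0.14 (0.12 without PBS replicate 4), with IGFBP4 at 134 FPKM and FOXA1 at 0.293 FPKM as the extremes of abundance. Of 15 tested genes of folate uptake and use, 1, ALDH1L2, had such a p, at a log2 fold change of 0.43, and the median was 0.04 (-0.03 without PBS replicate 4). ALDH1L2 stood at 0.33 without PBS replicate 4 (unadjusted p = 0.0685 by limma), and 0 genes of the list had such a p. TYMS, thymidylate synthase, led at 138 FPKM, and ALDH1L1 was lowest at 0.202 FPKM. Of 7 tested WT1 target genes, 1, EGR1, had such a p, at 5.79 ± 0.442 against 3.95 ± 0.901 FPKM (SD, n = 4 each) and a log2 fold change of 0.57, or 0.60 (unadjusted p = 0.00693 by limma) without PBS replicate 4. The median was -0.08, or -0.18 without PBS replicate 4. In that setting 3 had such a p, EGR1 higher and AREG (-0.70) and CDKN1A (-0.52) lower in gluconate tumors, against 6.21% of the genes then tested, and AREG and CDKN1A were named after their values were seen. With all 8 tumors AREG stood at -0.13 and CDKN1A at -0.43, with unadjusted p values of 0.795 and 0.0887 by limma. PODXL was the most abundant at 59.9 FPKM and NPHS1 the least at 0.00211 FPKM.

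**Figure D5:**
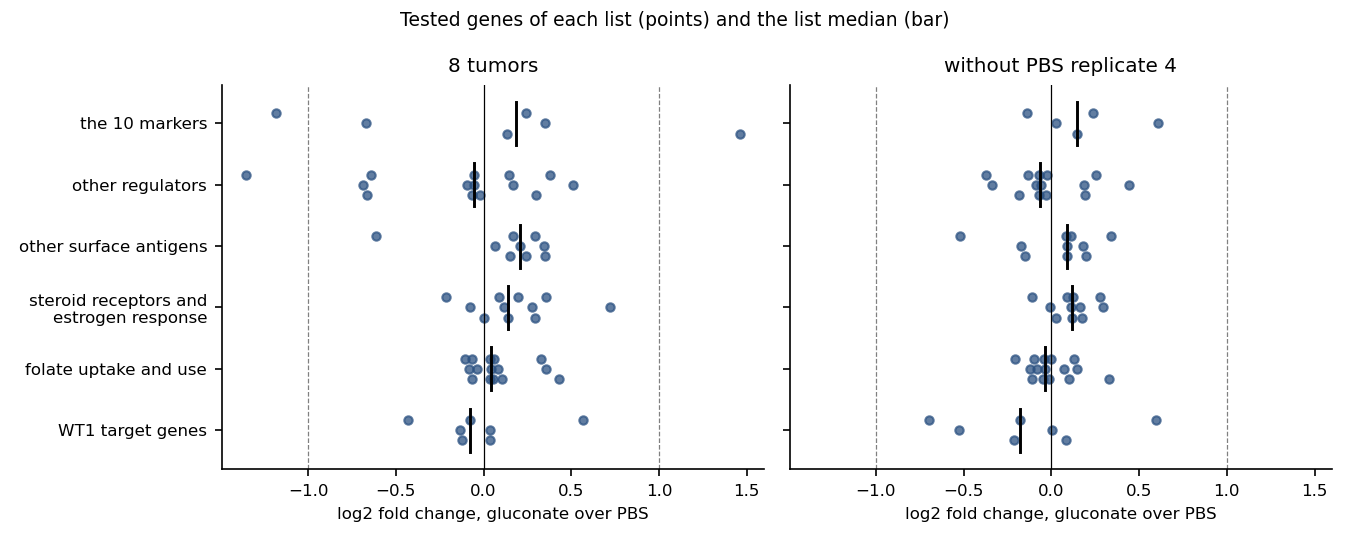
Limma log2 fold change, gluconate over PBS, of each tested gene (points) of the markers and of 5 lists of related genes, with the list median (black bar), for all 8 tumors and without PBS replicate 4; dashed lines mark a 2-fold change. MEIS1 lies beyond the line among the regulators with 8 tumors and inside it without PBS replicate 4.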

How the data were processed

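PolyA RNA of the tumors was sequenced as paired reads of 150 bases. The authors deposited 1 table of FPKM values for 24196 genes by symbol, with the build GRCh38 per the submitters' processing notes; the aligner, counting, strand setting and annotation are not given in the sources used here. Its columns are headed C and T with a number, read as PBS and gluconate because the study plots log2 of T over C for gluconate against PBS and only these groups have 4 samples. All columns were used, and 12 libraries of knockout cells and their controls were not analysed here. In 99.99% of values whole fragments were recovered (within 0.002 of a fragment), which gave depths of 3953206 to 46551535 fragments; a count of 0 was taken to allow 3 fragments.

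Groups were compared by limma (3.58.1, under R 4.3.3) on log2(FPKM + 0.1), two-sided, by lmFit and eBayes with trend and without covariates, for the 12486 genes whose mean reached 0.5 FPKM. Both lines were passed at 2-fold or more, in either direction, together with an unadjusted p below 0.05; adjustment was by Benjamini-Hochberg over the 12486 genes. Fold changes are on the log2(FPKM + 0.1) scale, so that those of low genes, above all genes at 0 in a tumor, depend on the 0.1. Single markers were compared with two-sided exact permutation tests on the mean log2 level over 70 splits of 8 tumors, or 35 splits without PBS replicate 4. The fit and the recovery of fragments were also run on simulated data, with an outcome that is not given here. Those data had the depths of the tumors but no library that deviated like PBS replicate 4. Alternatives were other pseudocounts (0.01 and 1), filters (none, or a mean of at least 1), median-ratio and quantile scaling, voom on the recovered fragments, a replicate block and leaving out each tumor; voom without PBS replicate 4 was chosen after seeing the data. The labels state no pairing across groups beyond the number of a tumor, and the main fit used none.

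Named genes were the 10 markers, the antisense and paralog partners, the most and least abundant gene of each list, any list gene past both lines, and the 3 genes most like PAX8 (the rule could not be applied to MUC16); all other genes named, those highest in PBS replicate 4 or at 0 and the ends of a range of fold changes included, were chosen after their values were seen. The members and lists were chosen with earlier results of these data known, and 1 gene of the lists is not reported here. Coordinates and overlaps are from GENCODE 29, and the upstream windows from RefSeq, whose table held windows for 7 of the 10 markers.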

Additional observations from a re-analysis of the deposited data

Results flagged for a closer look

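Values far from the rest of their group of 4, by Dixon's 95% critical value, were found in 9 of 22 groups examined (the markers and the depth, in each treatment). Chance gives about 1.10 where values are normally distributed. Skewed FPKM that rest on few fragments need not meet this, so the number expected may be higher. MUC16 does not meet it, as its groups each hold 3 values of 0 and 1 above it. Of the 9 groups, 6 concern PBS replicate 4: SOX17 at 0.216 FPKM, WT1 at 6.58 FPKM, EMX2 at 5.75 FPKM, MECOM at 2.21 FPKM and ESR1 at 0.361 FPKM were high, and its depth of 3953206 fragments was low. The SOX17 value rests on 2 fragments. FOLR1 was high in gluconate replicate 4, at 6.24 FPKM with 290 fragments. MUC16 was above 0 in only 1 tumor of each group, at 0.000972 FPKM in PBS replicate 2 and 0.00168 FPKM in gluconate replicate 1, with 2 and 3 fragments.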

How the results depend on the processing

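The count of markers past both lines was 0 with all 8 tumors and in 18 of 19 other settings; leaving out 1 tumor gave 0 to 1, the 1 being WFDC2 without PBS replicate 2. Of 144 values of single markers under an alternative, 140 kept their direction and side of the threshold, 1 (that of WFDC2) passed it and 3 turned direction. With 1 tumor left out, the log2 difference of EMX2 ran from -1.92 (without PBS replicate 3) to 0.037 (without PBS replicate 4), that of ESR1 from -0.67 (without PBS replicate 1) to 0.059 (without PBS replicate 4) and that of MUC16 from -0.0035 (without gluconate replicate 1) to 0.0060 (without PBS replicate 2), so that each changed sign. EMX2 could not be tested by limma without PBS replicate 4 or at a mean of at least 1 FPKM, where it was below the filter. The count of pairs of neighbouring markers that stood apart in every tumor was 3, 2 with the order by median and 3 to 4 with 1 tumor left out.

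Over all genes tested, 37 passed both lines (24 higher, 13 lower in gluconate tumors). A pseudocount of 1 gave 8, no filter 77 (61 and 16), voom 16 (9 and 7), voom without PBS replicate 4 (chosen after seeing the data) 14 (4 and 10), no fold line 577 and an adjusted p under 0.05 gave 0. Quantile scaling turned the split to 9 higher and 20 lower. Leaving out 1 tumor gave 11 to 91 calls: 91 without PBS replicate 1, 76 without PBS replicate 2, 82 without PBS replicate 3 (36 and 46), 11 without PBS replicate 4 (3 and 8), 15 without gluconate replicate 3 and 23 without gluconate replicate 4. With the replicate block 47 passed (32 and 15), and 0 markers. Same-numbered tumors had correlations of deviations of -0.18, 0.08, 0.17 and -0.06, and 4 of 8 tumors correlated best with their own number. So few and such weak values cannot decide whether the number pairs samples, and the labels state no pairing. The causes of these moves were not tested. Exact tests without 1 tumor cannot go below 0.0571. Depth limits WFDC2, SOX17 and MUC16 most, since in PBS replicate 4 they rest on 0, 2 and 0 fragments.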
